A study of Homo sapiens with 6 samples.

Results

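The unfolded protein and ATF4 stress response was followed through 37 genes with textbook roles in it, among the 17149 genes of each expression table. They fall into 6 stress sensors and their transcription factors, 15 chaperones and degradation factors of the endoplasmic reticulum (ER) that ATF6 and XBP1 are known to induce, and 16 genes of the arm headed by ATF4. RNA was sequenced from MDA-MB-231, a long-established and mesenchymal-like triple negative breast cancer line, 48 h after transfection with siRBCK1, a small interfering RNA against the ubiquitin ligase RBCK1, or with siControl, a negative control siRNA. Each group had 3 libraries, and both groups share the same cell line and transfection. The labels do not say which RBCK1 siRNA was used, nor whether each library of a group had its own culture. The p-values cover the differences seen among these libraries, and those could be technical.

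Proteins that fail to fold in the ER are sensed by 3 membrane proteins. IRE1 (gene ERN1) splices the mRNA of XBP1, ATF6 is cut in the Golgi to free a transcription factor, and PERK (gene EIF2AK3) phosphorylates the translation factor eIF2. XBP1 and ATF6 raise chaperones and ER-associated degradation (ERAD), whereas phosphorylated eIF2 slows translation in general but lets the ATF4 mRNA be translated. Other kinases that sense amino acid shortage, double-stranded RNA or heme deficiency also act on eIF2, so ATF4 and its targets respond to more than ER stress. Splicing of XBP1, cleavage of ATF6 and phosphorylation of eIF2 are not visible in gene-level mRNA values, and only mRNA levels are described here.

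The short DNA elements that carry this response were looked up in the RefSeq promoters of the genes (GRCh38.p14, 250 bases before to 50 after the start site). The ER stress response element (ERSE) was searched on both strands as CCAAT and CCACG with 9 bases of any kind between them, and ERSE-II as ATTGG and CCACG with 1 base between them. Of the 34 genes with a promoter in the table, 7 held an ERSE or an ERSE-II, against 0.136% of 27305 promoters, and 6 of the 7 belong to the chaperone and ERAD group. One site of each of these 7 genes is given here, with the element in capitals and on the strand that carries it as written, since these genes include the best known targets of the ER stress response.
XBP1, ERSE, chr22:28800598-28800626: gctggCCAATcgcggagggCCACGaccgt
HSPA5, ERSE, chr9:125241386-125241414: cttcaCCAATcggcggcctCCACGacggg
HSP90B1, ERSE, chr12:103930211-103930239: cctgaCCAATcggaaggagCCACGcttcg
CRELD2, ERSE, chr22:49918549-49918577: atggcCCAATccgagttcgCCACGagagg
HYOU1, ERSE-II, chr11:119057265-119057293: cgcgtactcATTGGaCCACGtcccaggcc
SDF2L1, ERSE-II, chr22:21642105-21642133: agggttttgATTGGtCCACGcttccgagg
HERPUD1, ERSE-II, chr16:56932016-56932044: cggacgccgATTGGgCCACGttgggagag
HSP90B1 and HYOU1 each hold a second such site, which makes 9 sites in all. The HYOU1 site nearer the start is the one shown, and the other overlaps TGACGTGG, the core of a further XBP1-type element called UPRE, which 0.795% of promoters hold on either strand.

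The core of the element bound by ATF4 together with C/EBP proteins, TGATGCAA, was found on either strand in 2 of the 34 promoters, those of CHAC1 and HERPUD1, against 0.923% of all promoters. Both sites lie on the strand opposite to the gene and are given because CHAC1 is the member that fell furthest.
CHAC1, ATF4 and C/EBP core, chr15:40953251-40953280: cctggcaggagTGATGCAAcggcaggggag
HERPUD1, ATF4 and C/EBP core, chr16:56931955-56931984: tgggcacgggcTGATGCAAcccgccgcgtc
A match is a description of the letters in this window and not a measured binding site.

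The values are FPKM, mapped fragments scaled to transcript length and to the size of the library, so levels can be set side by side between genes. RBCK1 itself stood at 41.53, 46.15 and 45.61 FPKM in the siRBCK1 libraries, against 64.96, 63.62 and 73.37 FPKM in the siControl libraries, a ratio of 0.66, so its mRNA was lowered and not removed. Pearson's r between the log2 values of 2 libraries was at least 0.995 within a group and at most 0.986 across the groups. Sums of FPKM per library were 587248.4 to 594194.1 in siRBCK1 and 614082.0 to 659065.0 in siControl. The MDA-MB-231 markers VIM, CD44, AXL, ZEB1, MSN and CAV1 were present and summed to 2897.12 to 2952.83 FPKM in siRBCK1 and 2928.01 to 2966.02 FPKM in siControl. VIM, at means of 1953 FPKM in siRBCK1 and 1974 FPKM in siControl, made up most of these sums. CD44 was lower in siRBCK1 (log2 fold change -0.25), CAV1 (0.28) and ZEB1 (0.31) were higher, and VIM, AXL and MSN did not pass the test described below. The 5 luminal and epithelial markers summed to 12.71 to 13.19 FPKM in siRBCK1 and 11.68 to 13.98 FPKM in siControl, with ESR1, PGR and CDH1 under 1 FPKM in every library. The others were expressed, EPCAM at means of 8.19 FPKM in siRBCK1 and 7.36 FPKM in siControl, and GATA3 at 4.53 and 5.46 FPKM. The 7 immune, endothelial and stromal markers summed to 5.26 to 5.82 FPKM in siRBCK1 and 5.90 to 6.86 FPKM in siControl, and 5 of them were under 1 FPKM in every library, the others being CD14 and ACTA2. CD14 was lower in siRBCK1 (log2 fold change -0.47), and whether other cells had a part in the results was not tested. In bulk RNA, a change in every cell and a change in some of the cells cannot be told apart.

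Of the 37 genes, 34 reached at least 1 FPKM in at least 3 libraries and were tested with limma on log2(FPKM + 1), with p-values adjusted over all 11135 tested genes. In the siRBCK1 cells, 17 of the 34 were higher at an adjusted p under 0.05, or 50%, and 3 were lower, or 8.82%. Over all tested genes, 36.8% were higher and 17.1% were lower. The groups did not overlap for 18 members that were higher in siRBCK1 and 4 that were lower, against 42.7% and 20.1% of all genes. The median log2 fold change was 0.16 over the members and 0.11 over all tested genes.

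That shared shift depends on how the libraries are scaled. In trimmed-mean scaling, the log2 deviation of each gene from its mean over the libraries was taken, for genes at 1 FPKM or more throughout. Each library was then scaled to remove the trimmed mean of its deviations. After this scaling the median of all genes was 0.01, and 24.7% of genes were higher and 25.4% lower. On this scale 7 members were higher and 7 were lower, or 20.6% each, with a median of 0.05. Quantile normalization also brought the median of all genes to 0.01 and gave 13 members higher and 7 lower, against 25% and 24.3% of all genes. The siControl replicate 3 library was the lowest of its group for 23 of the 34 members, or 67.6%, and for 53.7% of all tested genes. Leaving out that library, 17 members were higher and 4 lower, beside 34.9% and 17.6% of all genes. Without siRBCK1 replicate 3, 11 members were higher and 1 lower, and the shares of all genes were smaller too, at 27.9% and 13.5%.

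**Figure D1:**
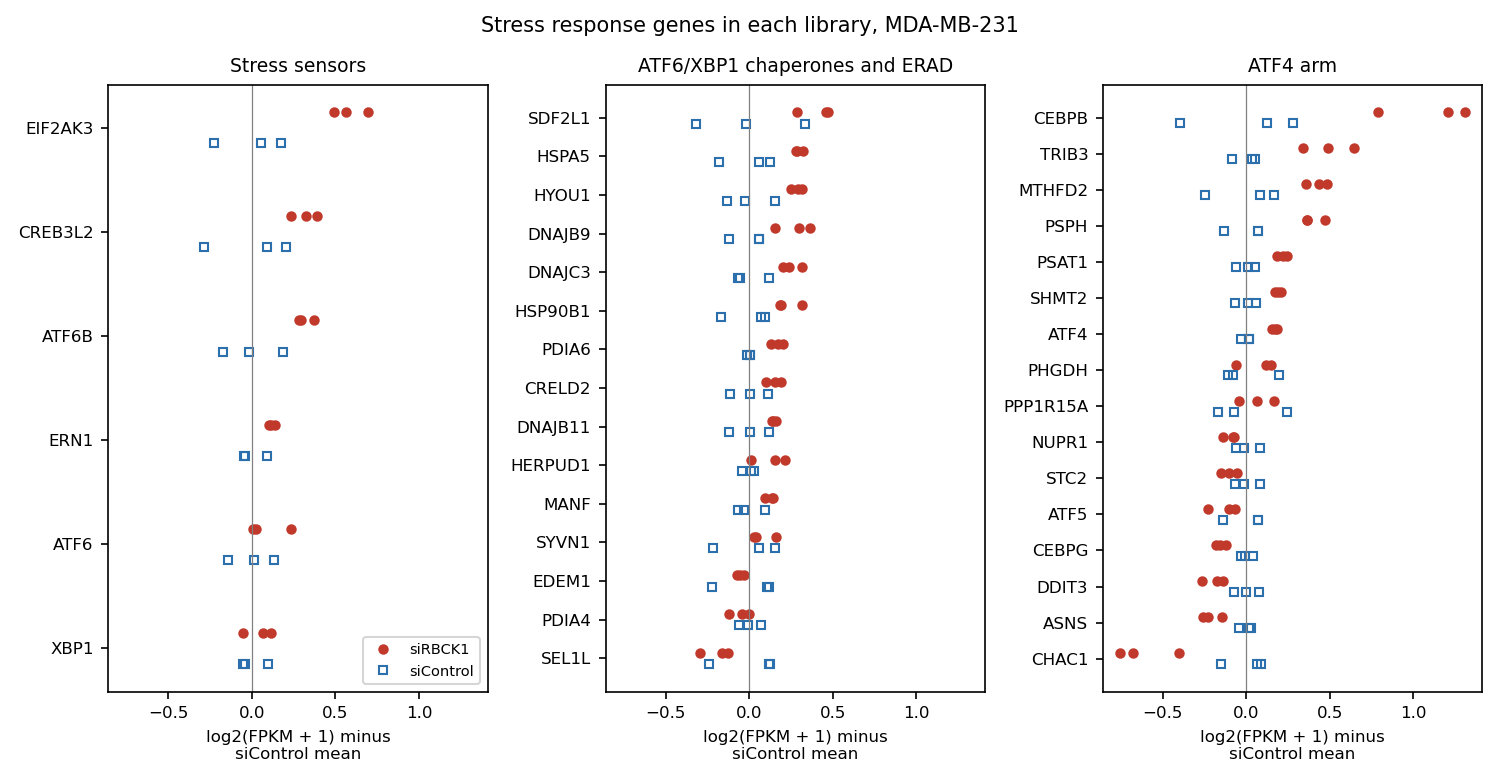
Level of each of the 37 genes in each library as log2(FPKM + 1) minus the mean of the siControl libraries, by group of genes, with filled circles for siRBCK1 and open squares for siControl. Among the genes whose groups do not overlap, CEBPB and EIF2AK3 stand to the right of their controls and CHAC1 to the left. The 2 groups overlap for 12 of the 34 tested genes, and for 4140 of all 11135 tested genes.

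Of the 20 called members, 8 kept their call and direction under all 15 other settings in which they could be tested. These were ATF6B, EIF2AK3, HSPA5, TRIB3, PSPH, MTHFD2 and CEBPB, all higher, and CHAC1, which was lower. EIF2AK3 and CHAC1 were too low for the setting that asks for 5 FPKM and were tested in 14. Only 1 of the 7 called chaperone and ERAD genes was among these 8, beside 2 of the 3 called sensors and 5 of the 10 called genes of the ATF4 arm. The share of all called genes that kept their calls in this way is not given here. Whether 8 of 20 is usual for called genes is therefore not known. Besides trimmed-mean scaling, quantile normalization ended the calls of CREB3L2 (0.16), DNAJB9 (0.12), DNAJC3 (0.10), SDF2L1 (0.32) and PSAT1 (0.11). Removal of the trend with gene length and GC content ended those of CREB3L2 (0.25), HSP90B1 (0.15), DNAJB9 (0.19), DNAJC3 (0.12) and DDIT3 (-0.08). It also brought CRELD2 (0.34) and MANF (0.28) past the threshold as higher and CEBPG (-0.24) and SEL1L (-0.33) as lower, which made 15 members higher and 4 lower, beside 37.9% and 16.3% of all genes. Testing without a minimum level left the fold changes as they were, and only the adjusted p of CREB3L2, HSP90B1, DNAJC3 and SDF2L1 moved past 0.05.

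Among the 6 sensors and their transcription factors, 3 were higher in siRBCK1, none was lower, and 3 did not pass the test. These shares were 50% and 0%, against 36.8% and 17.1% of all genes. After trimmed-mean scaling 2 were higher and none lower, against 24.7% and 25.4% of all genes. EIF2AK3, which encodes the eIF2 kinase PERK, had 3.38, 3.17 and 3.79 FPKM in siRBCK1, against 2.34, 2.08 and 1.53 FPKM in siControl. Every siRBCK1 library lay above every siControl library, and the ratio of the means, 3.45 ± 0.32 to 1.98 ± 0.41 (SD, n = 3 each), was 1.74. The log2 fold change was 0.58 with a standard error of 0.11 (adjusted p = 0.00136), larger than that of 94.0% of tested genes. The gene is low in both groups, and 15.1% of its annotated exon bases in GENCODE 29 are shared with antisense genes, whose reads cannot be told apart here because the use of strand in counting is not given.

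ATF6B, a relative of ATF6, had 62.96, 59.60 and 59.02 FPKM in siRBCK1, against 47.87, 55.36 and 42.95 FPKM in siControl. The groups did not overlap, and the log2 fold change was 0.31 with a standard error of 0.08 (adjusted p = 0.00781). ATF6 itself had 14.74, 12.61 and 12.42 FPKM in siRBCK1 and 12.48, 13.65 and 11.12 FPKM in siControl. These values overlapped, and the log2 fold change was 0.09 with a 95% interval of -0.11 to 0.29 (adjusted p = 0.422). After trimmed-mean scaling the value of ATF6 was -0.02. ATF6B was the more abundant of the pair in both groups.

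CREB3L2, a transcription factor of the ER membrane that is cut in the same way as ATF6, had 9.68, 8.58 and 9.20 FPKM in siRBCK1, against 7.66, 8.37 and 5.67 FPKM in siControl. The log2 fold change was 0.32 with a standard error of 0.12 (adjusted p = 0.0386). This call was lost after trimmed-mean scaling (0.21) and when any library but siControl replicate 2 was left out, with values of 0.28, 0.36 and 0.31 without siRBCK1 replicate 1, 2 or 3, and 0.36 and 0.17 without siControl replicate 1 or 3.

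Neither ERN1 nor XBP1 passed the test at the level of mRNA. ERN1 had 1.52, 1.56 and 1.5 FPKM in siRBCK1, against 1.48, 1.26 and 1.25 FPKM in siControl, close to the minimum for testing. The values did not overlap, but the log2 fold change of 0.12 had a 95% interval of -0.06 to 0.30 (adjusted p = 0.238), and it exceeded that of 51.2% of tested genes. XBP1, the target of IRE1, had 49.79, 54.20 and 56.08 FPKM in siRBCK1 and 50.11, 49.76 and 55.20 FPKM in siControl. The XBP1 ranges overlapped almost fully, and the log2 fold change of 0.04 had an interval of -0.10 to 0.18 (adjusted p = 0.569). The upper bound of the XBP1 interval is below the lower bound of the EIF2AK3 interval, 0.34.

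Of the 15 chaperone and ERAD genes, 7 were higher in siRBCK1, none was lower and 8 did not pass. These shares were 46.7% and 0%, against 36.8% and 17.1% of all genes, and the median log2 fold change was 0.15, against 0.11 over all genes. After trimmed-mean scaling 1 of the 15, HSPA5, was still higher, PDIA4 and SEL1L were lower, beside 24.7% and 25.4% of all genes, and the median was 0.04. Without siRBCK1 replicate 3 the test gave 3 higher genes, with 27.9% of all genes higher, and without siControl replicate 2 it gave 4, with 37.5% of all genes higher. Without siControl replicate 3 it gave 8 higher and 2 lower genes, SEL1L at -0.32 and EDEM1 at -0.17.

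HSPA5, known as BiP or GRP78, is the central ER chaperone and the most used readout of the unfolded protein response. It had 162.15, 161.48 and 166.21 FPKM in siRBCK1, against 138.33, 144.93 and 117.22 FPKM in siControl. No value overlapped, and the means of 163 ± 2.6 and 133 ± 14 FPKM (SD, n = 3 each) differed 1.22-fold, with a log2 fold change of 0.29 and a standard error of 0.07 (adjusted p = 0.00595). The spread in siControl came mostly from replicate 3. The log2 fold change was 0.18 after trimmed-mean scaling and stayed past the threshold.

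HYOU1, HSP90B1 and PDIA6 were also called higher, whereas the disulfide isomerase PDIA4 was at -0.05 on the log2 scale and did not pass (adjusted p = 0.436). HYOU1, a large relative of HSPA5 that exchanges its nucleotide, had 81.00, 77.35 and 79.72 FPKM in siRBCK1, against 63.89, 72.51 and 59.16 FPKM in siControl, with a log2 fold change of 0.28 (SE 0.07, adjusted p = 0.00611). HSP90B1, the ER form of HSP90, had 191.27, 175.71 and 174.60 FPKM in siRBCK1, against 161.81, 164.50 and 136.43 FPKM in siControl, with a log2 fold change of 0.23 (SE 0.07, adjusted p = 0.0217). PDIA6, a disulfide isomerase, had 131.42, 127.96 and 134.54 FPKM in siRBCK1, against 117.28, 117.15 and 115.51 FPKM in siControl, with a log2 fold change of 0.17 (SE 0.05, adjusted p = 0.011). None of these 3 genes overlapped between the groups, and none passed after trimmed-mean scaling, where their values were 0.17, 0.11 and 0.05. HSP90B1 was also lost without siRBCK1 replicate 1 (0.19) and was at 0.14, still past the threshold, without siControl replicate 3. PDIA6 was lost without siRBCK1 replicate 3 (0.15). PDIA6 shares 25.2% of its exon bases with ATP6V1C2, on the other strand.

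The co-chaperones DNAJB9 and DNAJC3 bring unfolded clients to HSPA5, and DNAJC3 is also known as an inhibitor of eIF2 kinases. DNAJB9 had 7.55, 8.45 and 8.90 FPKM in siRBCK1, against 7.01, 6.08 and 7.0 FPKM in siControl, with a log2 fold change of 0.27 (SE 0.09, adjusted p = 0.0199). DNAJC3 had 5.32, 5.18 and 5.67 FPKM in siRBCK1, against 4.83, 4.12 and 4.17 FPKM in siControl, with a log2 fold change of 0.25 (SE 0.08, adjusted p = 0.0248). Neither overlapped, and neither passed after trimmed-mean scaling (0.17 and 0.15). The DNAJB9 call was lost without siRBCK1 replicate 2 (0.26) or 3 (0.23) or siControl replicate 2 (0.21), and the DNAJC3 call without siRBCK1 replicate 1 (0.26) or 3 (0.22) or siControl replicate 2 (0.22).

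SDF2L1, a partner of ER chaperones, passed the test at a log2 fold change of 0.41 (SE 0.13, adjusted p = 0.0226), although 1 siControl value reached into the range of the siRBCK1 values. It had 29.73, 33.58 and 33.86 FPKM in siRBCK1 and 30.72, 23.86 and 19.21 FPKM in siControl. The call was lost without siRBCK1 replicate 2 (0.38) or 3 (0.37), without siControl replicate 2 (0.40) or 3 (0.25), and after trimmed-mean scaling (0.29).

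HERPUD1, an ERAD factor that is induced by both the ATF6 and the ATF4 arm, had 7.97, 9.34 and 8.94 FPKM in siRBCK1 and 8.10, 8.0 and 7.65 FPKM in siControl. The ranges overlapped and the log2 fold change was 0.13, with a 95% interval of -0.04 to 0.30 (adjusted p = 0.185). The other 7 members of the group that did not pass had log2 fold changes between -0.20 and 0.15. DNAJB11, CRELD2 and MANF lay at the upper end and SEL1L, the membrane partner of the ERAD ligase SYVN1, at the lower end. SYVN1 had a log2 fold change of 0.08 and the mannosidase-like EDEM1 of -0.05. Some of these crossed the threshold when 1 siControl library was left out: DNAJB11 at 0.20 without replicate 1, and CRELD2 at 0.20 and MANF at 0.17 without replicate 3.

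On the deposited scale, the members with an ERSE or ERSE-II had a median log2 fold change of 0.23, and the other members with a promoter and a test had 0.12. Of the 7 genes with such an element, HSPA5, HSP90B1, HYOU1 and SDF2L1 were higher and XBP1, CRELD2 and HERPUD1 did not pass. After trimmed-mean scaling only HSPA5 of the 7 was past the threshold, at 0.18. Since 6 of the 7 are chaperone and ERAD genes, the element and that group of genes cannot be told apart here. These medians are a description of few genes, and no test was made of them.

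**Figure D2:**
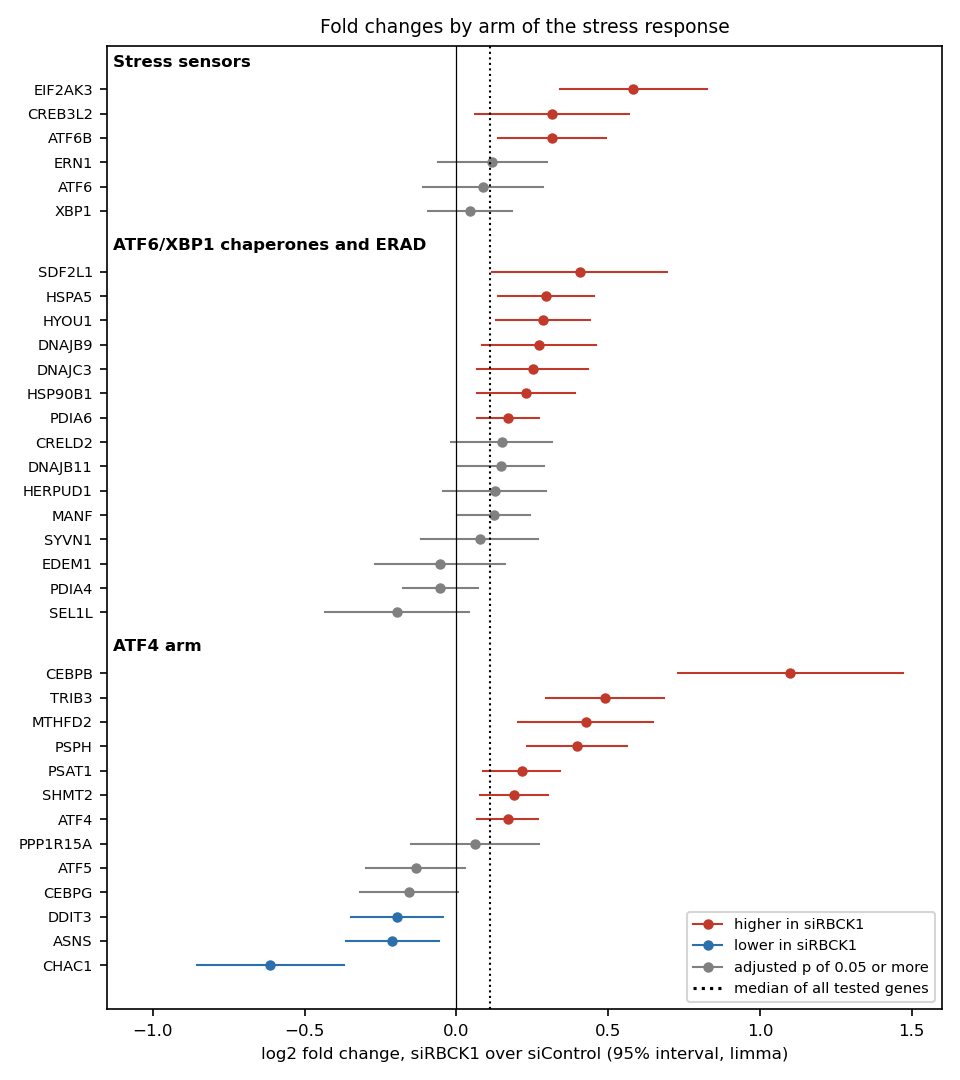
Log2 fold change of siRBCK1 over siControl for each of the 34 tested genes with its 95% interval from limma, by group of genes, with the median of all tested genes at 0.11 as a dotted line. Chaperone and ERAD genes lie between -0.20 and 0.41, whereas the ATF4 arm reaches from -0.61 for CHAC1 to 1.10 for CEBPB.

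The ATF4 arm moved in both directions. Of its 13 tested genes, 7 were higher in siRBCK1, 3 were lower and 3 did not pass, with a median log2 fold change of 0.17. The shares were 53.8% higher and 23.1% lower, against 36.8% and 17.1% of all genes. After trimmed-mean scaling 4 were higher and 5 lower, against 24.7% and 25.4% of all genes. PHGDH, STC2 and NUPR1 were not tested, since their group means were at most 0.79 FPKM.

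ATF4 was the most abundant of the 37 genes by mean FPKM in both groups. It had 197.75, 199.99 and 195.45 FPKM in siRBCK1, against 171.84, 178.02 and 177.61 FPKM in siControl. The libraries of a group lay close together and the groups did not overlap, but the ratio of the means was only 1.12 and the log2 fold change 0.17 (SE 0.05, adjusted p = 0.0102). This exceeded 58.1% of all tested genes, and after trimmed-mean scaling it was 0.05 and no longer past the threshold. GENCODE 29 names 4 ATF4 pseudogenes, to which reads of ATF4 could be assigned.

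CEBPB, a bZIP transcription factor that pairs with ATF4 and also serves inflammatory and differentiation programs, had the largest change of the 37 genes. It had 24.64, 35.82 and 33.36 FPKM in siRBCK1, against 17.04, 15.19 and 10.27 FPKM in siControl. Both groups were spread, but the lowest siRBCK1 library was above the highest siControl library. The means of 31.3 ± 5.9 and 14.2 ± 3.5 FPKM (SD, n = 3 each) differed 2.21-fold, and the log2 fold change of 1.10 had a standard error of 0.17 (adjusted p = 0.000378) and exceeded that of 99.5% of tested genes. An antisense gene, CEBPB-AS1, shares 11.8% of its exon bases.

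CEBPG, another partner of ATF4, stood on the other side. Its siRBCK1 values of 4.61, 4.85 and 4.70 FPKM lay below the siControl values of 5.33, 5.55 and 5.23 FPKM, with a log2 fold change of -0.16 (SE 0.07, adjusted p = 0.095). CEBPG was not past the threshold on the deposited scale, and it was after trimmed-mean scaling (-0.25).

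DDIT3, which encodes the proapoptotic factor CHOP, had 13.29, 13.67 and 12.43 FPKM in siRBCK1, against 15.13, 14.36 and 16.04 FPKM in siControl. It was lower in every siRBCK1 library, with a log2 fold change of -0.19 (SE 0.07, adjusted p = 0.0337). The DDIT3 call was lost without siRBCK1 replicate 1 (-0.20) or 3 (-0.16) and without siControl replicate 1 (-0.20) or 3 (-0.16). It was also lost with the length and GC trend removed (-0.08). After trimmed-mean scaling (-0.30) and quantile normalization (-0.31) DDIT3 stayed past the threshold. Overlapping genes share 39.6% of the exon bases of DDIT3.

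TRIB3, a pseudokinase induced by ATF4 and CHOP, was higher. It had 9.63, 12.15 and 10.83 FPKM in siRBCK1, against 7.63, 7.72 and 6.94 FPKM in siControl, with a log2 fold change of 0.49 (SE 0.09, adjusted p = 0.00106). TRIB3 is the neighbour of RBCK1 on chromosome 20, in the same orientation, and its annotated end lies 9938 bases before the start of RBCK1 (GRCh38, GENCODE 29). The neighbouring genes thus had opposite signs, and whether their positions bear on the result was not tested.

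CHAC1, an enzyme that degrades glutathione and a target of ATF4 and CHOP, fell furthest. It had 1.76, 2.53 and 1.91 FPKM in siRBCK1, against 3.20, 3.87 and 3.96 FPKM in siControl, a ratio of 0.56. All siRBCK1 libraries were below all siControl libraries, and the log2 fold change was -0.61 (SE 0.11, adjusted p = 0.000996). Only 2.30% of tested genes had a fold change as low, although the pseudocount understates changes at this level.

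PPP1R15A, which encodes GADD34, the subunit that directs a phosphatase to eIF2 and ends the translational block, had 71.64, 77.48 and 83.11 FPKM in siRBCK1 and 87.62, 70.26 and 65.72 FPKM in siControl. The siRBCK1 values lay inside the range of the siControl values. Its log2 fold change of 0.06 had a 95% interval of -0.15 to 0.27 (adjusted p = 0.602) and was -0.02 without siControl replicate 3 and -0.05 after trimmed-mean scaling. ATF5, a relative of ATF4 with the same kind of translational control, did not pass at -0.13 (adjusted p = 0.149), and it passed at -0.20 without siControl replicate 1 and at -0.25 after trimmed-mean scaling.

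**Figure D3:**
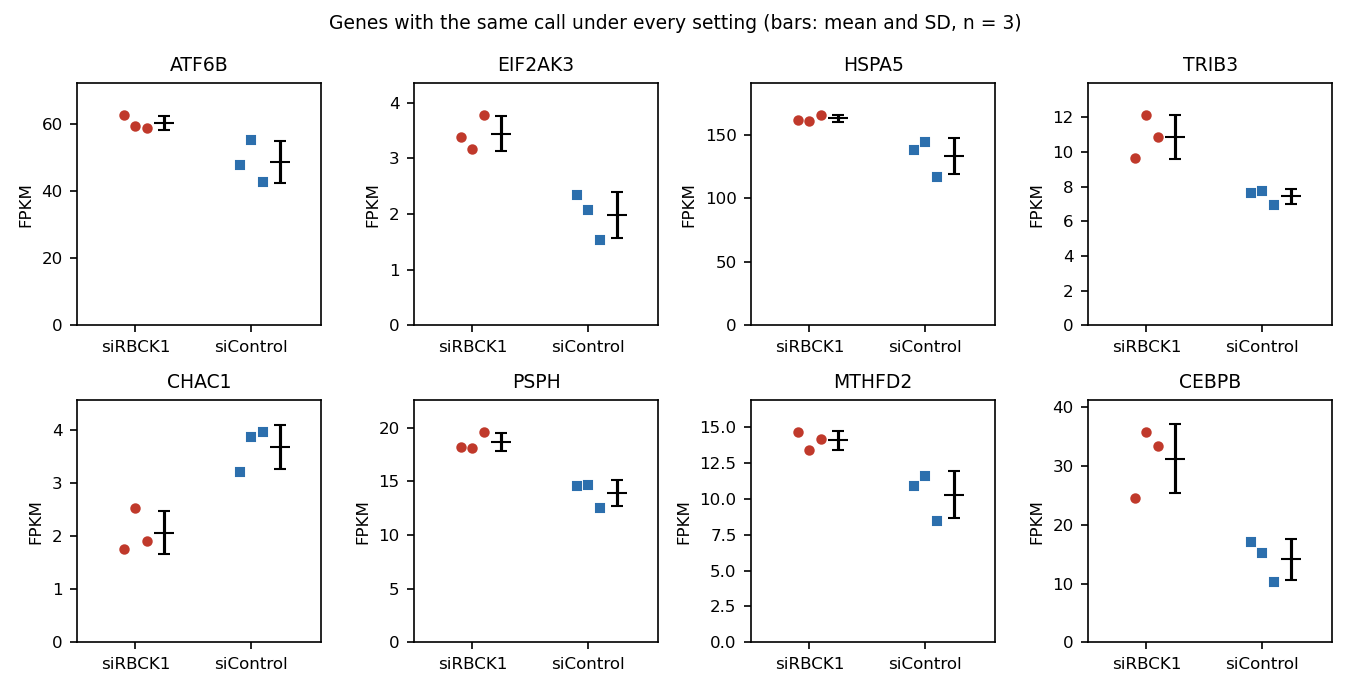
FPKM in each library for the 8 genes whose call and direction were the same under every setting, replicates 1 to 3 from left to right, with the mean and SD of the 3 libraries beside them and axes from 0. The siRBCK1 points are all above the siControl points for 7 genes and all below them for CHAC1.

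Among the serine and folate enzymes of the arm, PSPH, PSAT1, MTHFD2 and SHMT2 were higher on the deposited scale, and PSPH and MTHFD2 were so after trimmed-mean scaling too. PSPH, which makes serine in the last step of its synthesis, had 18.17, 18.13 and 19.62 FPKM in siRBCK1, against 14.60, 14.64 and 12.55 FPKM in siControl, with a log2 fold change of 0.40 (SE 0.07, adjusted p = 0.00128). PSAT1, the step before it, had 24.71, 25.26 and 25.73 FPKM in siRBCK1, against 21.79, 22.38 and 20.68 FPKM in siControl, with a log2 fold change of 0.21 (SE 0.06, adjusted p = 0.00982). The PSAT1 call was lost after trimmed-mean scaling (0.10) and without siRBCK1 replicate 3 (0.20). PHGDH, the first enzyme of the same pathway, was hardly expressed, at 0.63, 0.89 and 0.85 FPKM in siRBCK1 and 0.58, 0.95 and 0.61 FPKM in siControl. The pathway was thus read from its later steps, both of which were higher on the deposited scale.

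MTHFD2, a mitochondrial enzyme of folate metabolism, had 14.65, 13.37 and 14.16 FPKM in siRBCK1, against 10.85, 11.58 and 8.43 FPKM in siControl. No value overlapped, and the log2 fold change was 0.43 (SE 0.10, adjusted p = 0.00496). SHMT2, which feeds the same pathway from serine, was at 86.6 ± 1.1 FPKM in siRBCK1 and 75.9 ± 3.4 FPKM in siControl (SD, n = 3 each), with a log2 fold change of 0.19, and it did not pass after trimmed-mean scaling (0.07). GENCODE 29 names 7 pseudogenes of MTHFD2, and 33.2% of its exon bases are shared with genes on the other strand. PSAT1 has 4 named pseudogenes and PSPH has 1.

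ASNS, asparagine synthetase, a standard ATF4 target, was lower. It had 8.39, 7.68 and 7.87 FPKM in siRBCK1, against 9.48, 9.09 and 9.60 FPKM in siControl, with a log2 fold change of -0.21 (SE 0.07, adjusted p = 0.0258). The groups did not overlap, but the ASNS call was lost without siRBCK1 replicate 2 (-0.19) or 3 (-0.20) or siControl replicate 1 (-0.20). After trimmed-mean scaling (-0.32) and quantile normalization (-0.36) ASNS stayed past the threshold. GENCODE 29 names 4 ASNS pseudogenes and an overlapping transcript on the same strand that shares 44.6% of its exon bases.

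STC2, a secreted glycoprotein, and NUPR1, a small stress-induced chromatin protein, stayed under the minimum in every library. STC2 had 0.29, 0.25 and 0.21 FPKM in siRBCK1 and 0.28, 0.42 and 0.33 FPKM in siControl, and NUPR1 had 0.52, 0.53 and 0.46 FPKM in siRBCK1 and 0.70, 0.59 and 0.54 FPKM in siControl. In the fit without a minimum, PHGDH, STC2 and NUPR1 had log2 fold changes of 0.07, -0.10 and -0.10, none past the threshold (adjusted p = 0.66, 0.142 and 0.183).

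**Figure D4:**
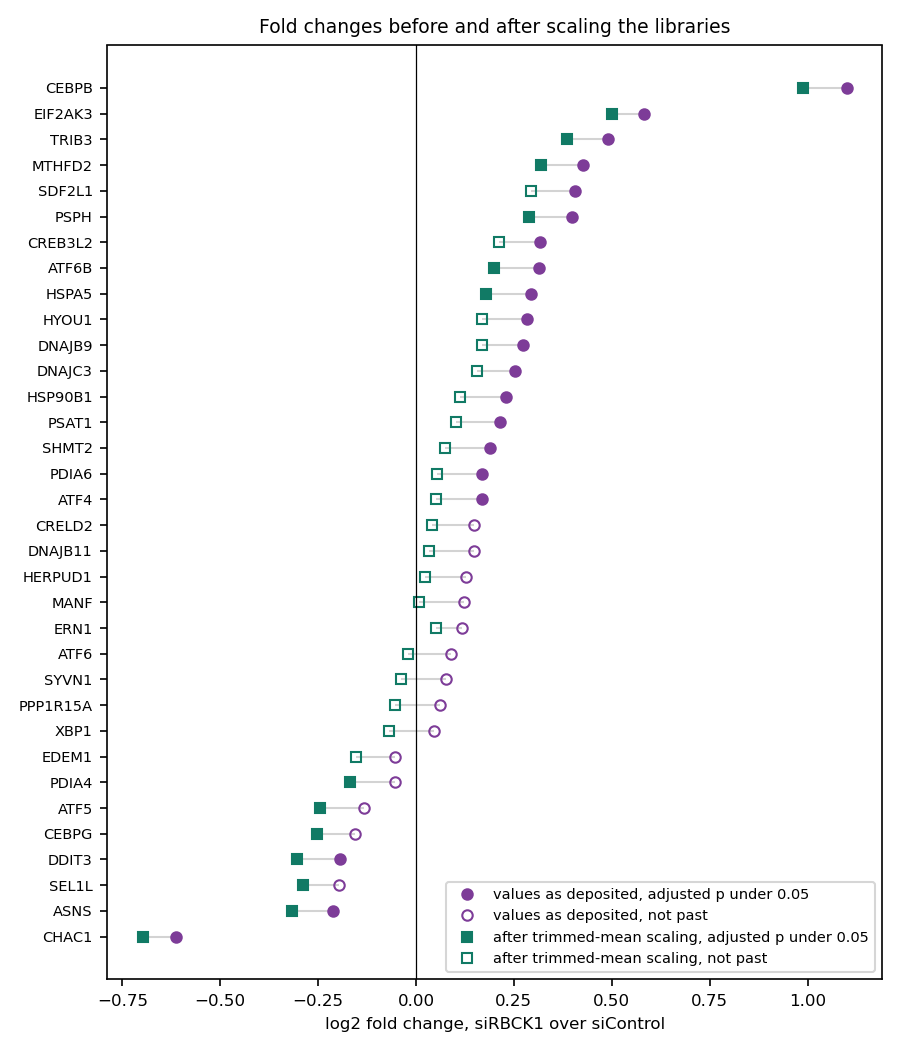
Log2 fold change of siRBCK1 over siControl for the 34 tested genes on the deposited scale (circles) and after trimmed-mean scaling (squares), filled where the adjusted p was under 0.05. Every gene moves to the left by about the shift of the median of all genes, 0.11 to 0.01, which leaves 7 genes higher and 7 lower.

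The pathways hold further genes that are not among the 37. Of 15 genes for the other eIF2 kinases, eIF2, its exchange factor eIF2B and the eIF2 phosphatase, 2 were higher and 4 lower in siRBCK1, or 13.3% and 26.7%, against 36.8% and 17.1% of all genes, and 9 did not pass. After trimmed-mean scaling 2 were higher and 6 lower, against 24.7% and 25.4% of all genes. EIF2S2, the beta subunit of eIF2, had 57.69, 56.62 and 60.09 FPKM in siRBCK1, against 119.94, 109.26 and 112.05 FPKM in siControl, which is 0.511 times the siControl mean (log2 fold change -0.96, SE 0.05, adjusted p = 5.14e-07). EIF2S3, the gamma subunit, was at 77.6 ± 2.5 FPKM in siRBCK1 and 57.2 ± 5.8 FPKM in siControl (SD, n = 3 each), with a log2 fold change of 0.44 (adjusted p = 0.000599). EIF2S1, the alpha subunit, was at means of 50.7 FPKM in siRBCK1 and 50.2 FPKM in siControl and did not pass (log2 fold change 0.01, adjusted p = 0.843). The beta and gamma subunits of 1 complex thus had opposite signs. EIF2B2, a subunit of the exchange factor, was lower at -0.68 (adjusted p = 1.94e-05), and NCK1, an adaptor that recruits phosphatase to eIF2, was higher at 0.58 (adjusted p = 0.00174). EIF2S2, EIF2S3, EIF2B2 and NCK1 kept their calls under all settings in which they were tested. GENCODE 29 names 4 EIF2S2 pseudogenes, and antisense genes share 23.6% of the EIF2B2 exon bases.

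Of 32 further tested targets of ATF4 and CHOP, 15 were higher, 7 lower and 10 not past, with a median log2 fold change of 0.16. These were 46.9% higher and 21.9% lower, against 36.8% and 17.1% of all genes. After trimmed-mean scaling 12 were higher and 9 lower, where 24.7% and 25.4% of all genes were. DDIT4, an inhibitor of mTORC1 that many stresses induce, had 80.84, 86.27 and 83.10 FPKM in siRBCK1, against 33.80, 37.53 and 28.42 FPKM in siControl, a 2.51-fold difference (log2 fold change 1.31, SE 0.09, adjusted p = 1.54e-06). DDIT4 moved further than any of the 37 genes, and an antisense gene, DDIT4-AS1, shares 41.2% of the DDIT4 exon bases. ATF3, a bZIP factor induced by ATF4 and by many other signals, was at 4.80 ± 0.43 FPKM in siRBCK1 and 2.49 ± 0.16 FPKM in siControl (SD, n = 3 each; log2 fold change 0.73, adjusted p = 7.47e-05). The amino acid transporter genes of this list went both ways. SLC38A2 and SLC7A1 were higher by 0.69 and 0.63 on the log2 scale (adjusted p = 4.82e-05 and 0.000327), and SLC1A5 by 0.20. SLC3A2, SLC1A4 and SLC7A11 were lower, at -0.28, -0.30 and -0.35, and SLC7A5 and SLC6A9 did not pass.

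Of 43 other tested genes for folding and translocation in the ER, 13 were higher, 5 lower and 25 not past, with a median of 0.05. The share higher, 30.2%, was below the 36.8% of all genes, as was the share lower, 11.6%, below 17.1%. After trimmed-mean scaling this split was 5 higher and 11 lower, where 24.7% and 25.4% of all genes were. GFPT1, the entry enzyme of the hexosamine pathway, was higher by 0.57, the prolyl isomerase FKBP14 by 0.49 and the cargo receptor LMAN1 by 0.44, whereas the isomerase FKBP2 fell by 0.45 on the log2 scale. Without siControl replicate 3 the value of LMAN1 was 0.29, and with the length and GC trend removed that of FKBP2 was -0.22, both still past the threshold. Of 27 tested ERAD genes outside the 37, 9 were higher, 3 lower and 15 not past, with a median of 0.07. These were 33.3% higher and 11.1% lower, against 36.8% and 17.1% of all genes. After trimmed-mean scaling 3 were higher and 6 lower, against 24.7% and 25.4% of all genes. The largest differences were for the mannosidase-like EDEM3 (0.42), UBXN4 (0.33) and FAF2 (0.32), which dock the extracting ATPase at the membrane, and for the ligase MARCHF6 (0.27), whose call was lost after trimmed-mean scaling (0.17), quantile normalization (0.15) and removal of the length and GC trend (0.15), without a minimum level, and without siRBCK1 replicate 1 (0.22) or 3 (0.28).

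Of 12 tested genes for the proteolytic activation of ATF6 and for related factors, 5 were higher, 1 lower and 6 not past. These shares were 41.7% higher and 8.33% lower, against 36.8% and 17.1% of all genes. MBTPS1, the Golgi protease that makes the first cut in ATF6, had 20.14, 19.63 and 19.97 FPKM in siRBCK1, against 14.52, 15.66 and 14.45 FPKM in siControl, with a log2 fold change of 0.40 (SE 0.06, adjusted p = 0.000395). The transcription factor YY1 was higher by 0.36 and TXNIP, which binds thioredoxin, by 0.58, and ATF3 is on this list too. After trimmed-mean scaling 4 of the 12 were higher and 3 lower, against 24.7% and 25.4% of all genes.

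**Figure D5:**
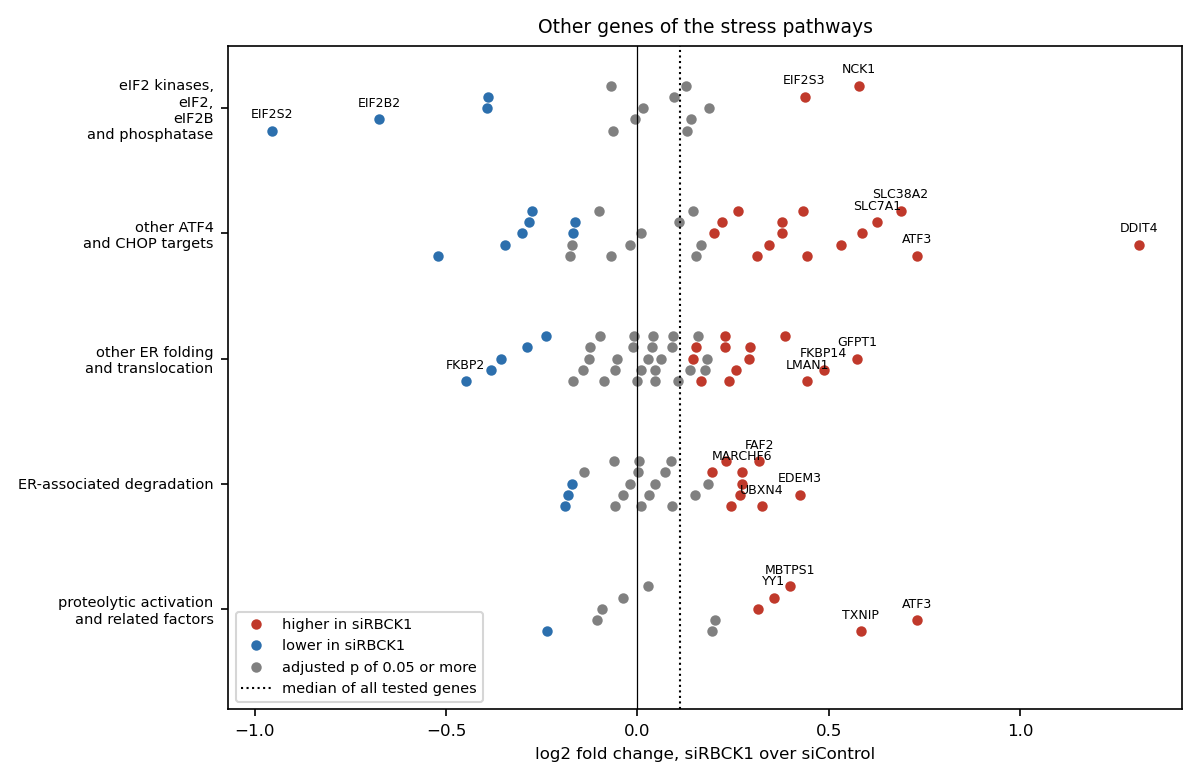
Log2 fold change of siRBCK1 over siControl for each tested gene of 5 further lists of the stress pathways, red where higher, blue where lower and grey where the adjusted p was 0.05 or more, with the median of all tested genes at 0.11 dotted and height within a list without meaning. DDIT4 lies furthest right at 1.31 and EIF2S2 furthest left at -0.96.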

How the data were processed

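RNA-seq of 3 siRBCK1 and 3 siControl libraries of MDA-MB-231 cells was analysed from the deposited FPKM values, which the authors obtained on the BGI platform and, per the submitters' processing notes, on GRCh38. How reads were aligned, counted, assigned to strands and filtered is not given in the sources used here. Depth is unknown, so counts could not be tested. The header inside the siRBCK1 replicate 2 table names replicate 1, and 0.548% of tested genes had identical values in both, so both were kept.

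Symbols were found for 17022 of 17149 gene numbers. The 11135 genes that reached 1 FPKM in 3 or more libraries entered a two-sided limma test (limma 3.58.1, R 4.3.3) of log2(FPKM + 1), fitted with a trend of variance on mean level. P-values were adjusted by Benjamini and Hochberg's method, and the step was checked on simulated data. A log2 fold change on this scale understates changes of low genes. The members, the lists and the 15 other settings were chosen with earlier results of these data known, and no test was made over a list. Full values are given for all sensors, for ATF4, DDIT3, PPP1R15A, HSPA5 and HERPUD1, and for called members without overlap, up to 8 per group of genes by size of change, and of each further list the 4 largest called genes are named. CEBPG, SDF2L1, SHMT2, PHGDH, STC2 and NUPR1 were added after their values were seen. So were EIF2S1 and the amino acid transporter genes named beside SLC38A2 and SLC7A1. Promoter sequences are from RefSeq (GRCh38.p14), and those of PSPH, SHMT2 and NUPR1 were not used here. Protein sequences were not analysed here. The replicate numbers were checked for pairing by correlating deviations from the group means.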

Additional observations from a re-analysis of the deposited data

How the results depend on the processing

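The 15 settings were pseudocounts of 0.1 and 0.5, no minimum, a minimum of 5 FPKM, quantile normalization, trimmed-mean scaling, removal of the trend with gene length and GC content, no intensity trend, a replicate block, and each library left out. The calls and directions of single genes were the same in 716 of 803 comparisons, and 12 turned direction, all in genes that were not past the threshold. The cause was not tested. With trimmed-mean scaling, members higher numbered 7 and members lower 7, with a median of 0.051, chaperone and ERAD genes 1 and 2 with a median of 0.042, ATF4 genes 4 and 5 with a median of 0.052, and the median of all genes was 0.0093. XBP1 was then at -0.070, ATF6 at -0.020, SYVN1 at -0.037 and PPP1R15A at -0.053. With quantile normalization, 7 members, 2 chaperone and ERAD genes and 5 ATF4 genes were lower, the medians were 0.10 for members, 0.081 for sensors, 0.11 for the ATF4 arm and 0.012 for all genes, and ATF6 was at -0.036, ERN1 at -0.0066 and HERPUD1 at -0.028. With the length and GC trend removed, ATF6 was at -0.029 and ATF5 at 0.015, CRELD2 (0.34) and MANF (0.28) were called higher, and 1 chaperone and ERAD gene was lower. With no minimum, 4 chaperone and ERAD genes were higher, and the share of all genes called higher was smaller too. The median was then 0.064 in the ATF4 arm and 0.036 over all genes. Leaving out each library gave 11 to 17 members higher and 1 to 4 lower. Of the chaperone and ERAD genes, 3 to 8 were higher and 0 to 2 lower, and of the ATF4 genes 6 to 7 and 1 to 3. The shares of all genes moved as well, from 27.9% to 37.5% higher and from 13.5% to 17.6% lower. Single values ran from -0.032 to 0.15 for SYVN1, -0.17 to 0.0065 for EDEM1 and -0.022 to 0.18 for PPP1R15A.

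Samples with the same number did not deviate together (correlations of -0.06, -0.19 and -0.04). With 3 libraries per group, this cannot show whether libraries of the same number were handled together, and the labels do not say. With the replicate block 17 members were higher and 2 lower, DDIT3 being lost (adjusted p = 0.0671). Among all tested genes, fewer were called higher and fewer lower with the block than without it.

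Depth is unknown, so the counting error of low genes such as ERN1, EIF2AK3 and CHAC1 cannot be given. Fold changes ran with gene length over 11074 genes (rho 0.242 by Spearman's method, taken across genes that are no independent replicates).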

Other observations

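Some genes of the further lists were chosen after their values were seen and are given as values only. Of the 4 subunits of the translocon-associated protein complex, which helps nascent chains enter the ER, SSR2, SSR3 and SSR4 fell by 0.29, 0.36 and 0.38 on the log2 scale in siRBCK1, whereas SSR1 had 25.23, 23.59 and 25.29 FPKM in siRBCK1 and 26.06, 24.97 and 21.74 FPKM in siControl. SSR3 had 60.52, 59.89 and 63.56 FPKM in siRBCK1, against 81.28, 78.03 and 77.10 FPKM in siControl, with no overlap (limma adjusted p = 0.000255).

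Both chains of the cystine transporter were lower in siRBCK1. SLC7A11 was at 0.99 ± 0.046 FPKM in siRBCK1 and 1.54 ± 0.28 FPKM in siControl, and SLC3A2 at 174 ± 3.2 FPKM in siRBCK1 and 212 ± 17 FPKM in siControl (SD, n = 3 each), at log2 fold changes of -0.35 and -0.28. SLC7A11 lay near the minimum of 1 FPKM for testing. Its siRBCK1 values were 0.98, 0.95 and 1.04 FPKM, and its siControl values of 1.79, 1.59 and 1.24 FPKM carried it past that minimum. With a minimum of 5 FPKM it was not tested. SLC3A2 also pairs with other transporters. CTH, which makes cysteine from cystathionine, was higher by 0.59 (limma adjusted p = 0.00069). The directions of these genes other than SSR1 were the same after quantile normalization, trimmed-mean scaling and correction for gene length and GC content, whereas SSR1 turned to -0.07, -0.08 and -0.09 in that order of settings. SSR2 was at -0.13 after quantile normalization and at -0.17 after the correction for length and GC content, and SSR4 at -0.20 after that correction.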
